A study of Mus musculus with 4 samples.

Results

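The small RNAs described here are those recovered with PIWIL1 from mouse testis that are 29, 30 or 31 nt long and begin with U. An insert was taken as the bases of a read before the 3′ adapter, identical inserts were summed, and inserts of these 3 lengths with U as first base were kept, whatever their abundance. They numbered 1177415 of 2517272 distinct inserts. In replicate 1, 654053 of them were seen, in 3033792 of 4722785 insert reads. In replicate 2, 811837 were seen, in 4446301 of 6322998 insert reads. Both libraries came from PIWIL1 immunopurified out of testis lysates of wild-type C57BL/6J mice aged 10 weeks, followed by selection of small RNA on a gel. The labels do not say whether the replicates came from separate animals, so the spread between them may be technical. The other libraries of the series, testis RNA of 1 Piwil1-/- and 1 Piwil1+/- sample at postnatal day 23, were not used here. No control immunoprecipitation was analysed here, so shares describe what was recovered and not an enrichment over unbound RNA. The 2 libraries form 1 group, and an exact two-sided permutation test on 2 within-library differences cannot go below p = 0.5. None was run, and differences are read against the SD between libraries.

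PIWIL1, called MIWI in the mouse, is an Argonaute protein of the PIWI clade in meiotic and postmeiotic male germ cells, and the RNAs it holds are PIWI-interacting RNAs (piRNAs). In the adult testis most piRNAs are pachytene piRNAs, cut from long single-stranded transcripts of dedicated genomic loci. A pocket of the protein's MID domain holds the 5′ base of the guide and favours U, and the PAZ domain holds the 3′ end. The 3′ end is made after loading: an exonuclease, PNLDC1 in the mouse, trims a longer precursor, and HENMT1 then adds a methyl group to the last sugar. The 5′ end therefore marks the cut, and the 3′ end marks where trimming stopped.

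The 3 most abundant RNAs of each length are shown first, because they show what single members look like. Capitals mark the first base and the last 2 bases, where the differences described below lie, and T in the sequences stands for U.
29 nt, rank 1: TttgaaatcaggactgttctggaaattCC
29 nt, rank 2: TaggaactattggtgttctttagacgaCC
29 nt, rank 3: TgtaaaatggactgaaatgttacctcaTC
30 nt, rank 1: TcaataaatatttgtagaatgcatgaatGA
30 nt, rank 2: TacactgtcgtgctcctgtacctagttcAC
30 nt, rank 3: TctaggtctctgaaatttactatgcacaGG
31 nt, rank 1: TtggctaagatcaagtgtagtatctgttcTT
31 nt, rank 2: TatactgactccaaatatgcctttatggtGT
31 nt, rank 3: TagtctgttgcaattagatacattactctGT

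Levels are given in reads per 1000000 insert reads (RPM). The first 31 nt RNA was the most abundant member, at 2011 RPM in replicate 1 and 3484 RPM in replicate 2, or 2748 ± 1041 RPM (SD, n = 2). It was also the least even of the 9 between libraries. From textbook knowledge its sequence is that of the 5′ part of the U2 small nuclear RNA, a spliceosome component. No sequence of that gene was among the references used here, so the match was not checked. The first 29 nt RNA was at 1453 and 2015 RPM in replicates 1 and 2, and the second at 1530 and 1543 RPM, nearly equal. The first 30 nt RNA was at 1238 and 1123 RPM, and the second 31 nt RNA at 908 and 1008 RPM. The other 4 RNAs averaged between 609 and 1295 RPM. No first 22 nt of the named RNAs was found in the RefSeq start-site windows or microRNA hairpins described at the end.

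The RNAs of 29 to 31 nt with a first U made up 64.2% of insert reads in replicate 1, with an exact (Clopper-Pearson) 95% interval of 64.2% to 64.3%. In replicate 2 they made up 70.3%, with an interval of 70.3% to 70.4%. These intervals cover counting error only, since PCR copies are not independent molecules. The mean was 67.3% ± 4.30 (SD, n = 2), so the libraries differed by far more than counting error. Just outside the length limits, U-first RNAs of 28 nt held 3.91% ± 0.354 of insert reads and those of 32 nt 6.35% ± 0.258. Among all inserts of 29 to 31 nt, U was the first base in 90.5% ± 0.0152 of reads. The share was 91.2% at 29 nt, 91.05% at 30 nt and 89.2% at 31 nt.

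The split over the 3 lengths was nearly the same in both libraries, although the total share was not. RNAs of 29 nt held 25.4% ± 0.221 of the reads, those of 30 nt 45.2% ± 0.0597 and those of 31 nt 29.4% ± 0.161 (SD, n = 2). The inserts of the same lengths that did not begin with U were longer on balance, with 23.4% ± 0.269 at 29 nt and 34.1% ± 0.248 at 31 nt. Both differences were larger than the SDs. Weighting each distinct sequence once in place of each read lowered the 30 nt share to 41.7%.

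The population was very diverse. In replicate 1, 14535 RNAs held 50% of the reads, and in replicate 2, 13084 did. The 10 most abundant held 1.84% and 2.02% of the reads in replicates 1 and 2, and the 100 most abundant 6.15% and 6.64%. RNAs with 1 read were 443771 and 546474 in number and held 14.6% and 12.3% of the reads. The 7 bases after the first U, the seed that a guide uses first in target pairing, took 15921 of the 16384 possible forms, and the commonest seed held 0.568% of the reads.

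Most of the material was shared between the libraries. Of the 1177415 RNAs, 288475 were seen in both, and these held 86.6% of replicate 1 reads and 85.9% of replicate 2 reads. This was 24.5% of the sequences, against 15.9% of inserts of the same lengths without a first U and 19.4% of all inserts. For all inserts, the shared sequences held 76.8% of replicate 1 reads and 80.4% of replicate 2 reads. Of 10683 RNAs with 100 or more reads over both libraries, 278 were at least 2-fold higher in replicate 2 than in replicate 1, which is 2.6%, where 2.65% of all 13147 inserts with that many reads were. At least 2-fold lower in replicate 2 were 64, or 0.599%, where 1.61% of all such inserts were. The share of RNAs higher in replicate 2 was thus near that of all inserts. The median log2 ratio of replicate 2 over replicate 1 was 0.18 for these RNAs and 0.17 for all inserts.

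Apart from the first U, the 5′ part had 2 positions rich in A. At position 2, A made up 40.9% ± 0.640 of the bases, and at position 5 it made up 47.6% ± 0.0418 (SD, n = 2). G was scarce at position 5, at 8.04% ± 0.128. The A at position 5 fell with length: it was 51.1% ± 0.175 at 29 nt, 47.3% ± 0.164 at 30 nt and 44.8% ± 0.303 at 31 nt. With each distinct sequence counted once, the fall was smaller, at 42.8%, 42.0% and 40.8%. The A at position 2 showed the opposite order, at 40.1% ± 0.608, 40.4% ± 0.685 and 42.4% ± 0.586, but the first 2 of these values lay within their spread.

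The inserts of 29 to 31 nt without a first U differed at other positions more than at position 5. A at position 5 was 6.06 ± 0.577 percentage points more frequent in the U-first RNAs than in those without (47.6% against 41.5%), in both libraries. With each distinct sequence counted once, the difference was 0.503 points, so it depended on the weight of abundant sequences. At position 2 the A share of reads was alike, at 40.9% with and 40.8% without a first U. With each distinct sequence counted once, it was 34.1% with and 40.9% without. G at position 2 stood at 22.2% ± 0.482 of reads with and 8.74% ± 0.200 without. U at position 2 ran the other way, at 20.6% ± 0.316 with and 33.995% ± 0.344 without. Counted once per distinct sequence, G there was 23.9% with and 11.4% without, and U was 23.6% with and 27.8% without, a smaller gap. A at position 10 was 29.6% ± 0.222 in the U-first RNAs and 42.5% ± 0.332 in the others. Per distinct sequence it was 28.8% and 36.3%, again closer. An A there is known from the ping-pong cycle, where a cut guided by one piRNA fixes the 5′ end of the next.

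Most well-covered 5′ ends had the same commonest length in both libraries. There were 557222 5′ ends, taken as the first 20 nt, and the 5039 with 100 or more reads in each library were examined. Their share was 51.8% of replicate 1 reads and 53.3% of replicate 2 reads. For 4697 of the 5039, or 93.2%, the commonest of the 3 lengths was the same in both libraries. In 302 the commonest length differed by 1 nt, and in 40 it was 29 nt in one library and 31 nt in the other. The commonest length held a median of 66.9% and 68.3% of a 5′ end's reads in replicates 1 and 2. Where the libraries disagreed, the commonest length led the next one by a median of 5.68 percentage points in replicate 1, against 44.4 points where they agreed. Across the 5039 5′ ends, Pearson's r of the share of a length between the libraries was 0.984 for 29 nt, 0.980 for 30 nt and 0.987 for 31 nt, a description over points that share 2 libraries.

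Many 5′ ends used nearly one length only. At least 80% of reads had 29 nt in both libraries at 233 5′ ends, 30 nt at 560 and 31 nt at 379. The commonest length was 29 nt at 994 5′ ends in both libraries, 30 nt at 2348 and 31 nt at 1355. At 280 5′ ends 30 nt was used less than both 29 and 31 nt in both libraries, so the length commonest overall was the least used there. Lengths here include reads whose last base differed from the base expected, as given below. At 78, each of the 3 lengths held 25% or more in both libraries.

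The 5′ end with the most reads among those mainly of 31 nt and the one among those mainly of 30 nt are shown with the commonest sequence of each length, with the first base and the last 2 bases in capitals.
Mainly 31 nt, its 29 nt form: TtggctaagatcaagtgtagtatctgtTC
Mainly 31 nt, its 30 nt form: TtggctaagatcaagtgtagtatctgttCT
Mainly 31 nt, its 31 nt form: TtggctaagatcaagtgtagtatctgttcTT
Mainly 30 nt, its 29 nt form: TcaataaatatttgtagaatgcatgaaTG
Mainly 30 nt, its 30 nt form: TcaataaatatttgtagaatgcatgaatGA
Mainly 30 nt, its 31 nt form: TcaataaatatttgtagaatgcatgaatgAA

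At the first of these 5′ ends the 3 lengths held 0.815%, 16.7% and 82.5% of the reads in replicate 1, from 29 to 31 nt, and 0.448%, 17.4% and 82.1% in replicate 2. The level of this 5′ end differed between the libraries, but the choice of length did not differ by more than a point. At the second, the lengths held 12.8%, 84.8% and 2.36% in replicate 1, and 14.0%, 83.9% and 2.09% in replicate 2. The second most abundant 5′ end mainly of 31 nt, that of the RNA ending in GT shown above, had 93.4% and 94.1% at 31 nt. The second one mainly of 30 nt, whose 30 nt form is TtgatggtaattggaagagcttctgggtGT, had 80.6% and 81.1% at that length. The 2 most abundant 5′ ends mainly of 29 nt were those of the first and second 29 nt RNAs above. The first had 80.05% and 81.5% of its reads at 29 nt, and the second 92.9% and 93.6%.

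The 2 most abundant 5′ ends that used all 3 lengths are shown for contrast.
All lengths, first, 29 nt: TataaagtgtggtctggatgtcgaactCC
All lengths, first, 30 nt: TataaagtgtggtctggatgtcgaactcCT
All lengths, first, 31 nt: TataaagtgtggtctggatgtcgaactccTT
All lengths, second, 29 nt: TaataagaccgtaaagtgacagcatttGT
All lengths, second, 30 nt: TaataagaccgtaaagtgacagcatttgTT
All lengths, second, 31 nt: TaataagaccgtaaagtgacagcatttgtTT

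The first had 37.0%, 27.4% and 35.6% of its reads at 29, 30 and 31 nt in replicate 1, and 33.1%, 27.2% and 39.7% in replicate 2. It is one of the 5′ ends at which 30 nt was the least used length in both libraries. The second had 31.4%, 36.4% and 32.2% in replicate 1, and 27.9%, 33.4% and 38.7% in replicate 2. At both 5′ ends the share of 31 nt was higher in replicate 2, and the commonest length differed between the libraries.

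The 3′ ends of all 3 lengths carried the same kind of bases, counted from the end. G stood before the last base in 38.0% ± 0.395 of 29 nt reads, 41.6% ± 0.895 of 30 nt reads and 43.8% ± 0.524 of 31 nt reads (SD, n = 2). Over the 3 lengths together it stood there in 41.3% ± 0.648 of reads, against 47.3% ± 0.853 of the inserts without a first U. U was the last base in 36.01% ± 0.681 of 29 nt reads, 45.3% ± 1.01 of 30 nt reads and 57.5% ± 0.704 of 31 nt reads. A and G as last base were lower at greater length, at 7.95% ± 0.496 and 9.89% ± 1.30 at 31 nt. Much of this order among last bases lay in reads whose last base differed from the base expected there, as given below with the differing last bases. The G before the last base was frequent at all 3 lengths.

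The place of a G also went with the length used by single 5′ ends. For 4113 of the 5039, bases 28 to 30 could be read from the inside of longer or neighbouring inserts. Where G stood only at position 29, in 694 5′ ends, 30 nt was the commonest length in 84.9% of them in replicate 1 and 85.2% in replicate 2. Where G stood only at position 30, in 677, the commonest length was 31 nt in 69.9% and 70.5%. Where it stood only at position 28, in 546, it was 29 nt in 41.8% and 42.5% and 30 nt in 36.8% and 36.1%. With no G at positions 28 to 30, in 1467, it was 30 nt in 53.9% and 52.6%. A G thus went with an insert end 1 base further on, most often at 30 nt. These lengths include reads whose last base differed from the expected one, as given below. Of 31 nt reads with a known expected base, such reads were 37.7% with G before the last base and 13.8% with U. The commonest lengths were not read again without them.

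The share of a 5′ end's reads at a length gave the same picture with all 5′ ends included whose base was known. Reads with a differing last base are included here too. Reads of 30 nt averaged 64.5% ± 0.575 over 1463 5′ ends with G at position 29 (SD, n = 2 libraries). They averaged 42.9% with U, 38.3% with C and 29.02% with A there. Reads of 31 nt averaged 50.7% ± 1.07 over 1238 5′ ends with G at position 30, and 26.96% with U, 26.8% with C and 20.2% with A. Reads of 29 nt averaged 38.7% ± 0.322 over 1302 5′ ends with G at position 28, and 27.8%, 17.9% and 13.6% with U, C and A. G was highest and A lowest before the last base at all 3 lengths. By the last base itself, the averages for 30 nt reads were 56.4% with C, 52.9% with U, 41.0% with A and 31.1% with G at position 30. They were 31.1%, 28.5%, 20.1% and 18.01% for 29 nt reads, and 40.9%, 37.8%, 19.6% and 28.1% for 31 nt reads. C was thus highest at all 3 lengths, but G was not lowest at 31 nt. The 1238 5′ ends with G at position 30 are those given above for 31 nt. Their low share at 30 nt is therefore no separate result, since the 3 shares of a 5′ end have a fixed sum.

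The last base of these RNAs often differed from the base that the inside of other inserts gave at that place. For each RNA, the 20 nt before the last base were looked up inside all inserts of both libraries together. An insert's own last base was never counted. An expected base was accepted where 3 or more reads gave it and 95% of them agreed. The last base then differed in 9.92% ± 1.40 of 29 nt reads, 15.6% ± 1.72 of 30 nt reads and 25.5% ± 1.74 of 31 nt reads (SD, n = 2). An expected base was known for 86.3% and 86.6% of the 29 nt reads of replicates 1 and 2, 75.6% and 75.2% of the 30 nt reads, and 66.8% and 66.5% of the 31 nt reads. The same lookup for the base before the last gave differences of 0.469%, 0.778% and 2.36% at the 3 lengths. The difference was thus concentrated at the last base, and was larger at greater length. Pooled over the 3 lengths it was 16.5% ± 1.59 of reads, and 34.1% with each distinct sequence counted once per library, so the level depended on the weighting. Beyond the 3 lengths it was 9.44% ± 1.31 in U-first RNAs of 28 nt and 32.5% ± 1.54 in those of 32 nt.

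For each length, the RNA with the most reads among those whose last base differed is shown with the form that carries the expected base and a longer insert that holds this base inside. The capital marks the place in question.
29 nt, differing: taggaactattggtgttctttagacgacT
29 nt, expected: taggaactattggtgttctttagacgacC
30 nt insert for comparison: taggaactattggtgttctttagacgacCa
30 nt, differing: tgggatttctttgaacctgatactgagagT
30 nt, expected: tgggatttctttgaacctgatactgagagG
31 nt insert for comparison: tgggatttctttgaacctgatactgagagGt
31 nt, differing: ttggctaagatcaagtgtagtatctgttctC
31 nt, expected: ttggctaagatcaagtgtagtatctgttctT
32 nt insert for comparison: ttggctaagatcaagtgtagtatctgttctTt

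The 29 nt form with the differing last base had 581 and 1282 reads in replicates 1 and 2, against 7226 and 9758 reads of the expected form. The 30 nt pair was closer, with 759 and 1430 reads of the differing form against 1087 and 1968 of the expected one. The differing 31 nt form had 513 and 1952 reads, against 9499 and 22029 reads of the expected one, the most abundant member. Of longer inserts with the expected base, all lengths together, the 3 examples had 613, 192 and 566 reads in replicate 1, and 765, 384 and 1296 reads in replicate 2.

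The differing last base was mostly U. U made up 52.1% ± 1.37 of differing last bases at 29 nt, 62.2% ± 3.04 at 30 nt and 72.0% ± 3.50 at 31 nt. Where the last base matched, U made up 34.7% ± 0.573, 42.8% ± 1.44 and 51.8% ± 1.85. C came next, and its share of differing bases was unlike in the libraries: 30.6% in replicate 1 and 39.996% in replicate 2 at 29 nt, and 17.1% and 25.3% at 31 nt. G showed the reverse, with 8.17% in replicate 1 and 1.73% in replicate 2 at 29 nt. The libraries therefore agreed on U as the commonest differing base but not on the share of C and G.

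The base before a differing last base was often G. It was G in 52.5% ± 0.809 at 29 nt, 56.4% ± 0.639 at 30 nt and 61.8% ± 0.602 at 31 nt, against 35.6%, 35.7% and 34.9% before a matching last base. Seen from the other side, the last base differed in 37.7% ± 1.80 of 31 nt reads with G before it, and in 21.2%, 18.03% and 13.8% of those with C, A and U before it. The order at 30 nt was G with 22.6%, C with 15.2%, A with 10.6% and U with 8.94%. With the differing bases set aside, G before the last base thus stood at about the same level at all 3 lengths.

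The order of last bases by length was weaker in the expected bases than in the observed ones. Over reads with a known expected base, the observed last base was U in 36.4%, 45.8% and 56.9% at 29, 30 and 31 nt, and the expected base was U in 34.8% ± 0.836, 40.5% ± 1.47 and 43.4% ± 1.54. A was observed in 15.9%, 12.3% and 7.01% and expected in 16.9%, 15.3% and 13.2%. G was observed in 19.3%, 16.8% and 11.4% and expected in 20.7%, 20.4% and 18.9%.

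Single 5′ ends differed widely in this respect, and in the same way in both libraries. Among 860 5′ ends with 100 or more 31 nt reads of known expected base in each library, the median share of differing last bases was 10.7% in replicate 1 and 13.9% in replicate 2. In 120 of them it was 50% or more in both libraries. Among 1600 5′ ends at 30 nt, with medians of 9.21% and 11.9%, 69 reached 50% in both, and among 893 at 29 nt, with medians of 7.62% and 10.0%, 3 did. Pearson's r between the libraries across these 5′ ends was 0.902, 0.970 and 0.988 at 29, 30 and 31 nt, again a description. Both libraries were read against the same expected bases, so a wrong expected base would raise the share in both. Rare 5′ ends had more differing bases. With 5′ ends classed by their level in replicate 1, the share in replicate 2 at 30 nt was 20.8% under 1 RPM, 19.2% at 1 to 10, 16.3% at 10 to 100 and 14.6% at 100 to 1000 RPM, the last from 654 5′ ends. Only 11 5′ ends reached 1000 RPM, with 10.8%.

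Inserts of the same lengths without a first U also had differing last bases, so the feature was not particular to U-first RNAs. At 31 nt the share was 25.5% ± 1.74 with and 22.1% ± 1.54 without a first U, and at 29 nt 9.92% ± 1.40 with and 9.25% ± 1.04 without. At 30 nt the order was the other way, with 15.6% ± 1.72 against 18.3% ± 1.70. The origin of the differing bases was not tested.

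A second reading used known genome sequence in place of other inserts. Members were matched to RefSeq windows of GRCm38.p6, 32851 windows around gene starts and 1005 microRNA hairpins, by their first 22 nt, and the match had to run to within 3 bases of the 3′ end. Another 1827 RNAs whose first 22 nt were found at more than 1 place in these windows were left out. This placed 4157 of the RNAs at 2088 places, with 0.403% of replicate 1 reads and 0.402% of replicate 2 reads. Copies outside the windows were not looked for. The last base differed from the window in 11.6% ± 0.325 of 29 nt reads, 23.1% ± 1.32 of 30 nt reads and 32.9% ± 1.08 of 31 nt reads (SD, n = 2). The base before it differed in 2.52% ± 0.246, 1.97% ± 0.168 and 4.82% ± 0.0792. U made up 55.8% ± 5.01, 67.1% ± 1.34 and 78.9% ± 5.27 of the differing bases. From 29 to 31 nt the order of the lengths and the lead of U were the same as with the insert lookup, at higher levels for 30 and 31 nt. U-first RNAs of 28 nt went against that order in the windows, at 15.1% ± 2.69 over 416 places, and those of 32 nt were at 57.3% ± 0.430 over 384 places, far above the insert lookup.

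The base that follows the 3′ end in the precursor was read in the same ways. Taken from longer inserts that begin with the whole RNA, it was U for 41.2% ± 0.285 of 29 nt reads, 61.8% ± 0.770 of 30 nt reads and 75.7% ± 0.570 of 31 nt reads, or 59.6% ± 0.511 over all. In this reading the following base is often the last base of a longer insert. Taken only from the inside of inserts, it was U for 31.5% ± 0.191, 36.5% ± 0.816 and 38.7% ± 0.0755, or 35.6% ± 0.417 over all. In the RefSeq windows it was U for 20.6% ± 0.887, 30.5% ± 0.631 and 42.1% ± 2.33. Only the order of the 3 lengths was common to the readings, with the lowest share of U at 29 nt and the highest at 31 nt. In the windows this order rested on the most abundant 5′ ends of Mir7210 and Gm33539, followed by U at 30 and 31 nt. At 31 nt they held 540 and 379 of 3709 placed reads in replicate 1, and 916 and 702 of 5411 in replicate 2. At 30 nt they held 583 and 112 of 5397, and 913 and 201 of 7702. The windows therefore do not show the order for the placed RNAs at large. For reads of 30 nt, the base that followed went with a smaller range of shares within 5′ ends than the base before the last. They averaged 53.2% with A following, 46.9% with G, 41.8% with U and 38.6% with C. At 29 nt the range was wider, nearer to that of the base before the last, with 38.7% for A, 20.2% for U, 18.1% for G and 16.8% for C. At 31 nt it was small, with 33.3% for U, 31.1% for A, 30.3% for G and 28.8% for C.

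Abundance went with sequence. RNAs were classed by their level in one library and described in the other, so that the class and the values shared no reads. Classed in replicate 1, 569955 RNAs under 1 RPM held 25.3% of that library's reads, and 7 at 1000 RPM or more held 1.48%. In between, 75152 RNAs of 1 to 10 RPM held 31.7%, 8590 of 10 to 100 RPM held 31.4% and 349 of 100 to 1000 RPM held 10.1%. In replicate 2, 7 RNAs reached 1000 RPM and held 1.67%. Of the RNAs under 1 RPM in replicate 1, 64.0% were not seen in replicate 2, and of those of 1 to 10 RPM 0.949% were not.

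Described in replicate 2, A at position 5 stood at 41.7%, 45.7%, 53.7% and 50.5% of reads in the classes under 1, 1 to 10, 10 to 100 and 100 to 1000 RPM. A at position 2 stood at 33.1%, 37.9%, 46.9% and 48.4%. The share of 30 nt was 41.7%, 44.3%, 47.2% and 53.4%, and G before the last base stood at 36.4%, 40.3%, 45.4% and 54.0%. G at position 5 was lower in the abundant classes, at 10.4%, 8.61%, 5.64% and 7.08%. The last base was U in 46.6%, 47.0%, 47.5% and 50.2%, a smaller change. With the libraries exchanged, G before the last base was 35.1%, 39.1%, 44.7% and 52.9% and the 30 nt share 41.9%, 44.6%, 46.7% and 54.3%. The class of 1000 RPM or more held 7 RNAs, too few to describe by shares.

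Inside the sequence of an abundant 5′ end, other RNAs started nearby, mainly at a U. One base downstream, 887 of the 5039 5′ ends had a U. At these the neighbouring start had 35.3% as many reads as the main start in replicate 1 and 34.2% in replicate 2, counting inserts of 26 to 33 nt. Where that base was not U, it had 1.502% and 1.57%. At 3 bases downstream the values were 27.99% and 28.2% with U, against 0.582% and 0.520% without. At 7 bases they were 7.77% in both libraries with U, against 0.426% and 0.423% without. A neighbouring start at a U 1 base downstream was seen at all in 98.5% and 98.4% of the 5′ ends, and at another base in 63.1% and 69.0%.

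Some of the RNAs placed in RefSeq windows are shown with their place in the genome (GRCm38.p6), since most others could not be placed with the references used here. Of the placed reads outside hairpins, 40.5% and 39.7% lay on the strand of the gene and 59.2% and 60.03% on the opposite strand in replicates 1 and 2. Places on a single chromosome were left out of the printed examples. The 4 most abundant of the other 5′ ends in start-site windows had these commonest forms, with first and last 2 bases in capitals.
Mif window, opposite strand, chr10:75860429-75860457: TagatagtgaggacttgactctagtgaTT
Gm33539 window, opposite strand, chr4:7166022-7166052: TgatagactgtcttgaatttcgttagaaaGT
Gm21269 window, gene strand, chr7:73825922-73825952: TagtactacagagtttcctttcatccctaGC
Gm10619 window, opposite strand, chr7:73816690-73816719: TcaaaagtcttgctaaaaaaccctctgaTA

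The Mif window, at the start of the gene of a cytokine called macrophage migration inhibitory factor, held the 29 nt RNA on the plus strand, with 90.3% of its 5′ end's reads at 29 nt in replicate 1 and 90.5% in replicate 2. The commonest 30 nt form there differed from the window at its last base, with 33 and 61 reads. The Gm33539 5′ end had 73.9% and 74.6% of its reads at 31 nt, with G before the last base. The Gm21269 5′ end had 79.2% and 87.1% at 31 nt, again with G before the last base. The Gm10619 5′ end had 75.2% and 74.9% at 30 nt and no G there. The places of Gm21269 and Gm10619 lie on the plus strand of one stretch of chromosome 7, as does that of the hairpin Mir7234 (chr7:73819612-73819640). Its 5′ end had 39 and 71 placed reads, all at 29 nt. A read was placed only where the window or hairpin reached past its last base, so longer reads near a hairpin's end are missed. The placed reads of Mir7234 therefore do not show its choice of length.

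Hairpins annotated as microRNA genes held 321 of the RNAs, in 53 genes, with 1988 and 3038 reads in replicates 1 and 2, of which 98.9% and 99.01% lay on the hairpin's strand. MicroRNAs are shorter guides of Argonaute proteins, cut from hairpins, so these RNAs are longer than the annotated products. At the first base of a mature microRNA began 71 of them, with 1202 and 1916 reads, and nearly all these reads were at 1 gene, Mir7210, with 1144 and 1858. The mature RNA of RefSeq, with its seed at bases 2 to 8 in capitals, and the 2 commonest RNAs at the same first base are shown.
miR-7210-5p: uAACAUUGuagacaggcacaaag
30 nt, chr14:24088877-24088906: TaacattgtagacaggcacaaagatcccCT
31 nt, chr14:24088877-24088907: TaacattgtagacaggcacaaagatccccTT

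The 30 nt RNA had 499 and 780 reads and the 31 nt RNA 507 and 822 reads in replicates 1 and 2. At this 5′ end 30 nt held 51.0% and 49.1% of reads, 31 nt 47.2% and 49.3%, and 29 nt 1.84% and 1.56%. The reads thus ended almost entirely at 2 neighbouring bases, in equal parts in both libraries. At Mir34b, a gene of the miR-34 family expressed in testis, RNAs began 1 base before the annotated miR-34b-5p and ran past its end, with 75 and 86 reads. Its commonest 31 nt form is shown beside the window's bases for the same place, chr9:51103603-51103633 on the minus strand.
Mir34b, RNA: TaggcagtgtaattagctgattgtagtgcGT
Mir34b, window: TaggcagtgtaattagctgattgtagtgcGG

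The RNA with the differing last base had 33 and 26 reads in replicates 1 and 2. Other mature microRNAs that shared a first base with these RNAs had few reads, 8 and 8 for miR-21a-5p and 5 and 7 for miR-10b-5p.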

How the data were processed

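Small RNAs purified with PIWIL1 from testis were sequenced in 2 libraries, which the labels' titles name as replicates of 1 group. The authors deposited raw read counts, with each distinct 50 nt read on a line beside its count per replicate, adapter included. Per the labels' protocols the RNA was gel-purified and a NEBNext small RNA kit was used. Bowtie, STAR and mm10 are named in the submitters' processing notes without versions. The table holds no alignment.

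The adapter was read from the reads themselves, and inserts were the bases before the first exact match to its first 10 nt, found in 97.6% and 98.7% of reads; reads with an error in those bases are missed, and an error at the 3′ end counts as a differing base. Depth was 4836797 and 6408274 reads. Shares are percentages of reads, and values are means ± SD over 2 libraries. Inserts with an undetermined base (3 in all) were left out of base counts. Fold changes between libraries used RPM + 0.1. Printed RNAs followed a rule: the 3 most abundant of each length, the 2 most abundant 5′ ends with 80% or more of reads at 1 length in both libraries, and the 2 with 25% or more at each length. The RNAs with differing last bases and the placed RNAs were chosen after values were seen. The members and lists were chosen with earlier results of these data known. Promoter, hairpin and mature sequences and coordinates are from RefSeq (GRCm38.p6). Trimming, the last-base lookup and the reading of the following base from the inside of inserts were held to set limits on simulated random sequence. The reading from longer inserts that begin with the whole RNA was run there without a limit. Python 3.11.15, numpy, pandas and scipy were used.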

Additional observations from a re-analysis of the deposited data

How the results depend on the processing

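Of 52 alternatives over 7 results, 39 kept the value within the spread between libraries (for the count of 5′ ends, within 1.5 times), and 13 moved it. The 39 include those that left out 1 library. These could not move a value, because each of 2 libraries always lies within 1 SD of their mean. Only the difference in A at position 5 could change its sign, and it kept it in all alternatives. Other adapter matches (8 nt, 12 nt, or 10 nt with 1 mismatch) moved none. Counting each distinct sequence once per library gave a share of 48.6% of inserts for the 29 to 31 nt RNAs with a first U, 41.7% of them at 30 nt, 0.503 points for the difference in A at position 5, 56.3% for U after the 3′ end and 34.1% for differing last bases (16.5% with reads counted). Keeping only inserts with 2 or more reads gave 72.2% for the share of insert reads, 45.6% for 30 nt and 1.91% for the reads in members of 1000 RPM or more (1.57% with all). That class is empty (0%) without the 100 most abundant members. With 20 or more reads per library, 19173 of 21411 5′ ends had the same commonest length (89.5%).

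All alternatives for differing last bases were chosen after seeing the data, and among them 99% agreement gave 13.5% and the RefSeq windows 23.1%. So was reading the base after the 3′ end from the inside of all inserts, which gave 35.6% for U. Leaving out 1 library each gave 64.2% to 70.3% for the share of insert reads, 45.1% to 45.2% for 30 nt, 5.65 to 6.46 points for A at position 5, 59.3% to 59.98% for U after the 3′ end, 1.48% to 1.67% for the class of 1000 RPM or more and 15.4% to 17.6% for differing last bases. No paired analysis was possible because the small RNA libraries form 1 group, with no second group whose replicate numbers could pair with theirs; differences between sets of inserts were taken within each library. Expected bases at the 3′ end exist only where longer or neighbouring inserts were sequenced, so rare RNAs are under-represented there.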
